A study of Danio rerio with 2 samples.

Results

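The long arm of zebrafish chromosome 4 was described through the peaks that an antibody to the HA tag gave there in cells of the adult heart. Its members were the rows of the deposited peak list on chromosome 4 with a summit at base 25000000 or beyond, 8153 of 192841 peaks (4.23% of the list). They were spread over the 53.1 Mb from that base to the end of the last listed peak. The rule itself used position and no measured value. It was chosen, however, when a rise in peaks of low q along chromosome 4 was already known from these data. The last peak before the boundary, from 24988158 to 24988361, and the first after it, from 25004689 to 25004859, each had 3 overexpression fragments at their summits. The list does not mark a centromere, so the name of the arm could not be checked against one and stands here for the coordinate rule.

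The long arm of this chromosome is known in zebrafish as an unusual stretch of the genome. It is rich in repeats and in heterochromatin, replicates late in S phase, and carries large families of near-identical genes, among them those for NLR immune receptors, zinc finger proteins, small nuclear RNAs and 5S ribosomal RNA, with few of the single-copy protein-coding genes found elsewhere. In some natural strains it holds the region linked to sex. Short reads from such repeats often match several places equally well, and copies that an assembly has merged collect the reads of all of them. Npas4l, encoded by the gene known as cloche, is a bHLH-PAS transcription factor that acts at the head of the blood and endothelial programmes in the embryo.

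In CUT&Tag an antibody brings the Tn5 transposase to its target on chromatin, and the DNA that the enzyme cuts there is sequenced. The series has 2 samples, each made from 30 pooled adult ventricles, with 1 sample in each group and no replicates. For both samples the labels give 2000000 cells and 0.2% formaldehyde. The control carried Tg(gata1a:Cre-ERT2) alone, and the Npas4l-HA OE sample carried Tg(ubi:loxp-stop-loxp-Npas4l-HA) as well. The Cre transgene was thus shared by both, and the gata1a promoter that drives it is active in red cells and thrombocytes, so that the tagged protein is expected only where the stop had been removed. The cells were labelled platelets, but the pellet was described as mainly platelets and erythrocytes, and the cell type behind a fragment cannot be told from the list. No expression values accompany it, so markers could not be checked, and tamoxifen treatment is not stated in the labels used here. Coordinates are those of the GRCz11 build named in the submitters' processing notes, counted from 1. The base sequences and the genes under the peaks were not analysed here.

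For each peak the authors deposited a fold enrichment, a p and a q. Together, the fold and the p of a peak fix how many overexpression fragments covered its summit and which background, in scaled control fragments, they were set against. The background never fell below a genome-wide value of 0.994, and above it each control fragment over a summit counted 0.552, which makes the control library 1.81 times as deep as the overexpression library. With 1 library a group, no difference below could be set against replicate error and no test was run. Values are descriptions of these libraries, and peaks of the long arm share both of them. Intervals are Wilson 95% intervals for shares and exact Clopper-Pearson intervals for ratios, and they cover counting error only. They make no allowance for named peaks having been picked as extremes.

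The comparison asked how the long arm differs from the rest of the genome in its peaks of HA-tagged Npas4l over the control. Its density of peaks was above that of each of the other 24 chromosomes, at 1.10 times their pooled value. The long arm differed by larger factors in the share of peaks with a low q and in the background behind them. Over all its peaks the median ratio of pileup to background was lower than on the other chromosomes, but not within most ranges of background. The long arm held 153.6 peaks per Mb, against 136.6 on the rest of chromosome 4 and 139.7 ± 4.79 (SD, n = 24) on the other chromosomes. The highest of those was chromosome 8 at 146.1.

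Peaks with a low deposited q were denser. The limit of 0.05 used for them was set here, and the authors' list also holds peaks above it. Peaks at or under a q of 0.05 are called peaks of low q below, and they were 5.49% of the whole list. On the long arm 769 of the 8153 were of low q, which is 9.43% (8.82% to 10.1%). The share was 3.51% (2.95% to 4.19%) on the rest of chromosome 4, where 120 of 3414 peaks passed. On the other 24 chromosomes it averaged 5.22% ± 0.667 (SD, n = 24), with chromosome 8 highest at 6.39%. The long arm stood above all 24 of them, and the rest of chromosome 4 stood below the lowest, chromosome 1 at 3.92%. A rise of this kind was known before the members were chosen, so this contrast is a description and not an independent finding. Per length, the long arm held 14.5 such peaks per Mb, 1.99 times the 7.29 of the other chromosomes and 3.02 times the 4.80 of the rest of chromosome 4.

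**Figure D1:**
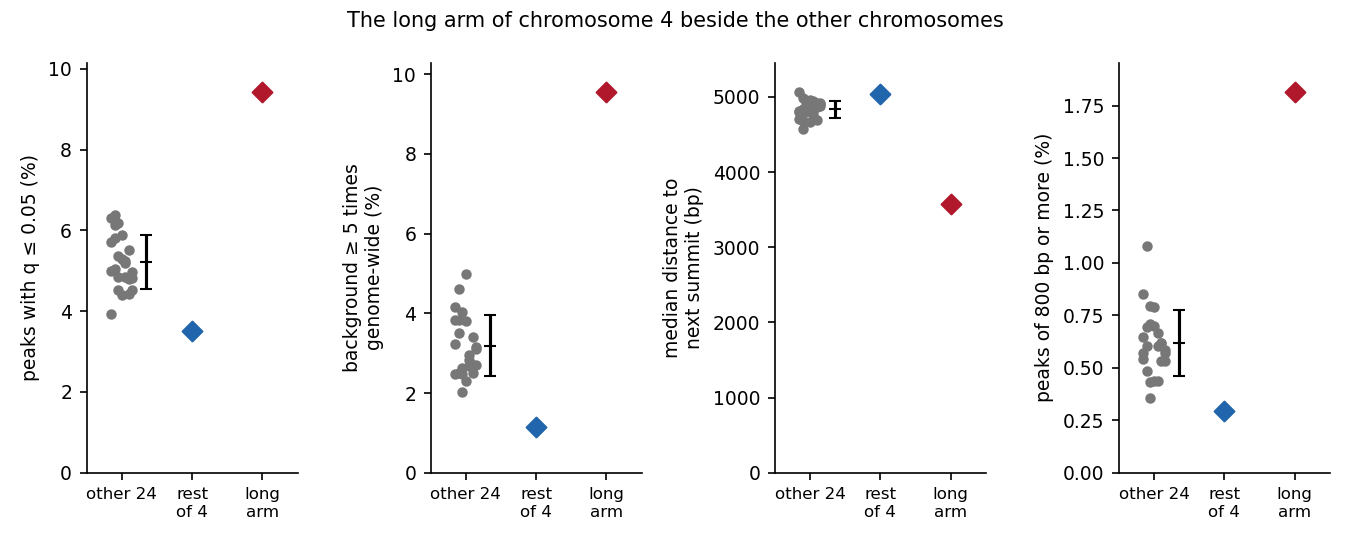
Each panel shows 1 quantity (share of peaks of low q, share of high background, meaning 5 times the genome-wide value or above, median distance to the next summit in bp, share of peaks of 800 bp or more) for the other 24 chromosomes (grey points, with mean and SD as the black bar), the rest of chromosome 4 (blue) and the long arm (red). The long arm lies outside the range of the 24 chromosomes in all 4 panels, at 9.43%, 9.55%, 3577 bp and 1.82%.

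Stricter limits on q did not shrink the contrast with the pooled other chromosomes. At a q of 0.01 or less the share on the long arm was 4.98%, or 1.99 times theirs, beside 1.81 times at 0.05. The spread between chromosomes was not computed for 0.01. At a -log10 q of 5 or more the factor was also above that at 0.05, but single chromosomes varied widely. Only for high folds was the factor smaller. In the whole list 0.747% of the peaks had a -log10 q of at least 5, and so did 104 peaks of the long arm, or 1.28% (1.05% to 1.54%). On the other chromosomes the share was 0.687% ± 0.391 (SD, n = 24), and 3 of the 24 had a higher share than the long arm. On the rest of chromosome 4 it was 0.117%, from 4 peaks. A fold enrichment of 5 or more was reached by 0.303% of the list and by 28 peaks of the long arm, or 0.343% (0.238% to 0.496%). That share lay within the spread of the other chromosomes, 0.310% ± 0.0856 (SD, n = 24). The long arm thus stood outside the other chromosomes in its share of peaks of low q, and within their range in the shares of the lowest q and of high folds.

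Along the arm, peaks were unevenly spread. In the 53 whole bins of 1 Mb, the number of peaks ran from 52 to 261 with a median of 157. Among the 1258 bins of the other chromosomes, the middle 90% ran from 109 to 170. On the long arm 15 bins (28.3%) lay above that range and 6 (11.3%) below it. The rest of chromosome 4 had none on either side in its 25 bins. The long arm was therefore more uneven, with an SD over bins of 41.5 peaks, beside 19.8 over the bins of the other chromosomes.

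The densest bin, from 55 to 56 Mb, held 261 peaks, and the next, from 53 to 54 Mb, held 245. The sparsest, from 66 to 67 Mb, held 52. Between 45 and 49 Mb there were 365 peaks, or 91.3 per Mb, and between 53 and 56 Mb there were 719, or 239.7 per Mb. These limits were chosen after the values were seen. Intervals that hold no peak lower the count of a bin by definition, and the 3 longest of them lay in these sparse parts. The longest ran from 45630935 to 46434225, or 803.3 kb, and the next from 66030835 to 66475331, or 444.5 kb. The longest such interval on any of the other 24 chromosomes was 142.2 kb, and 4 on the long arm exceeded it. The fourth of these, 164.1 kb long, lay in the bin from 63 to 64 Mb, which held 193 peaks. In all, 27 intervals of 50 kb or more took up 3.35 Mb of the long arm. Without them its density was 164.0 peaks per Mb, against 141.8 on the other chromosomes treated the same way. Since these intervals were picked for holding no peak, leaving them out can only raise a density.

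**Figure D2:**
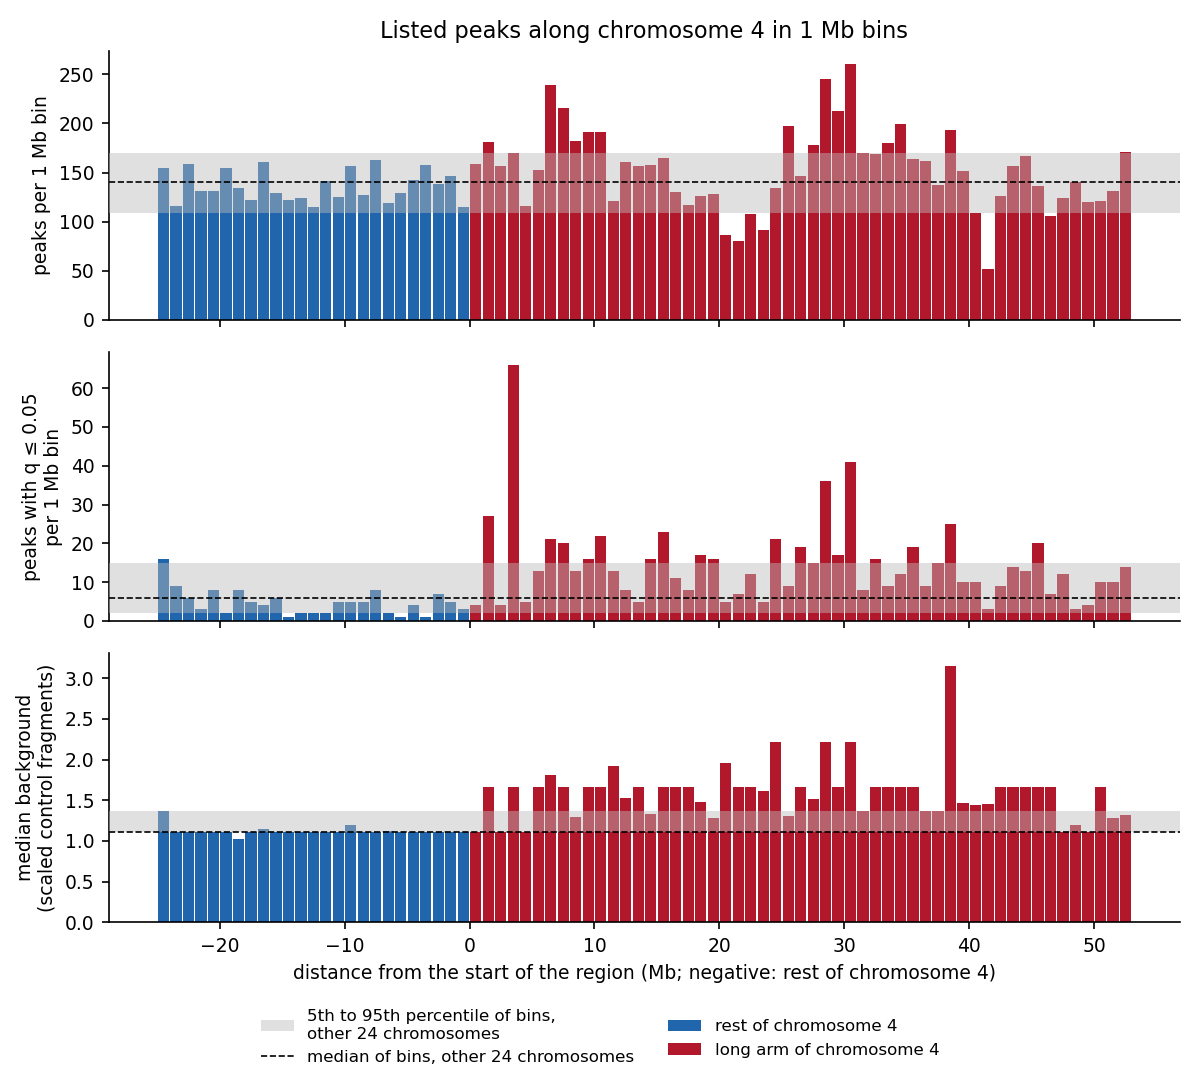
Bars give, for each whole 1 Mb bin of chromosome 4, the number of listed peaks, the number of low q and the median background in scaled control fragments, against the distance in Mb from the start of the region (blue: rest of the chromosome; red: long arm). The grey band spans the 5th to 95th percentile of the bins of the other 24 chromosomes and the dashed line is their median; 38 of the 53 long arm bins lie above the band for the background.

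Peaks of low q exceeded the range of other bins in separate places. On the long arm a bin held 3 to 66 of them, with a median of 13. On the other chromosomes the median was 6 and the 95th percentile 15, and 19 of the 53 long arm bins (35.8%) held more than 15. The bin from 28 to 29 Mb had the most, 66. It was followed by 55 to 56 Mb with 41, 53 to 54 Mb with 36 and 26 to 27 Mb with 27. The 2 strong bins near the start stood between weak ones: 25 to 26 Mb held 4 and so did 27 to 28 Mb, and 29 to 30 Mb held 5. From 30 to 72 Mb the median over bins was 13, and 35 of those 42 bins had a median background above the 95th percentile of the other chromosomes. In the last 6 bins, from 72 to 78 Mb, 1 did, and their counts of peaks of low q ran from 3 to 14. Across the 53 bins, the median background and the share of peaks of low q had a Pearson r of 0.371 and a Spearman rho of 0.464. Both values come from the same peaks and libraries. With the region begun at 30 Mb in place of 25 Mb, the share of low q was 9.0% inside it and 5.39% on the rest of the chromosome, which then took in the 2 strong bins.

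The control was high at listed summits over much of the long arm, as in 38 of its 53 bins above. The median background behind a listed peak was 1.66, which is 3 control fragments over the summit. It was 1.10 on the rest of chromosome 4 and 1.11 ± 0.00878 (SD, n = 24) on the others, where chromosome 15 was highest at 1.14. Backgrounds set at the summit move in steps of 0.552, and 1.66 and 1.10 are neighbouring steps. The medians of the other chromosomes lay at or near the lower step, so their small SD says little about the spread of the control. Only 19.9% of the long arm's peaks stood at the genome-wide background, against 36.1% on the rest of the chromosome and 31.3% ± 1.56 (SD, n = 24) on the others. Of its peaks, 779 (9.55%) are called peaks of high background below, since theirs was 5 times the genome-wide value or above. That share was 3.19% ± 0.769 (SD, n = 24) on the other chromosomes and 1.14% on the rest of chromosome 4. By its genotype the control carries no HA transgene.

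The windows that set the background were also compared. The peak caller takes the highest of the genome-wide value and the control over the summit, over 1 kb and over 10 kb. The widest of these windows set the background for 1153 peaks of the long arm, or 14.1%. On the other chromosomes it did so for 9.75% ± 0.885 (SD, n = 24), and on the rest of chromosome 4 for 7.53%. The summit itself set it for 47.1% of the long arm's peaks and 40.3% of those on the other chromosomes. The 1 kb window set nearly equal shares, 18.9% and 18.7%. All of these are shares of all peaks, and fewer stood at the genome-wide value on the long arm, 19.9% against 31.2%. That leaves more peaks for the windows together, so these shares alone do not tell the scales apart.

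**Figure D3:**
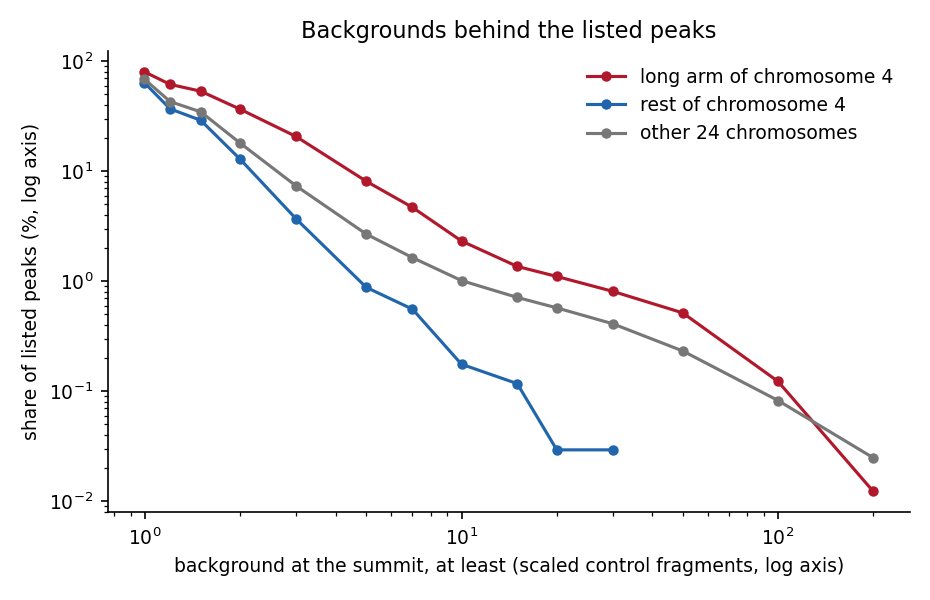
The share of listed peaks (log axis, %) whose background reaches at least the value on the horizontal axis (log axis, scaled control fragments) is drawn for the long arm (red), the rest of chromosome 4 (blue) and the other 24 chromosomes (grey). The long arm has the highest share up to a background of 100, for example 20.7% at 3 or more against 7.35% on the other chromosomes and 3.69% on the rest of chromosome 4.

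Overexpression fragments were more numerous too. The median summit of the long arm was covered by 6 of them, with quartiles of 4 and 8. The median was 4 on the rest of chromosome 4, and no other chromosome had a median above 5. With peaks of high background left out, or dense 100 kb stretches, the median on the long arm was 5, equal to that of the other chromosomes. Summits with 10 or more overexpression fragments made up 17.5% of the long arm's peaks, 2.64% of those on the rest of the chromosome and 6.09% of those on the other 24. Pileups and backgrounds were thus both higher at listed summits of the long arm. Their ratio was lower: the overexpression pileup over the background had a median of 3.22 (quartiles 2.62 and 4.02), against 3.62 on the rest of chromosome 4 and 3.59 ± 0.0404 (SD, n = 24) on the other chromosomes. A listed peak needs more overexpression fragments, and a smaller ratio, at a higher background. The pileup and the ratio are thus both tied to the background by the list's own threshold.

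Since the same ratio gives a smaller Poisson p where the background is high, peaks were also set side by side within ranges of background. At the genome-wide background, 4.01% (3.16% to 5.08%) of the long arm's 1619 peaks were of low q, against 3.13% (2.99% to 3.28%) on the other chromosomes. Between 1.5 and 2, the shares were 7.67% (6.38% to 9.20%) and 3.47% (3.26% to 3.68%). Between 2 and 3 they were 10.2% (8.68% to 12.0%) and 6.07% (5.74% to 6.42%). From the genome-wide value to 1.5 the shares were 7.68% and 5.05%. They were 9.07% and 7.56% at 3 to 5, 17.2% and 14.9% at 5 to 10, and 92.2% and 86.0% at 20 or more. The intervals count clustered peaks as independent, so their overlap does not test a difference. At 10 to 20 the shares were 42.4% and 42.8%. If each range had the share of the other chromosomes, the long arm would hold 554.5 peaks of low q at its own backgrounds, and 424.5 at theirs. It held 769, or 1.39 times the first number. Median ratios of pileup to background were equal at the genome-wide value, from 3 to 5 and from 10 to 20. The long arm's was higher at 1.5 to 2 (3.06 against 3.02) and at 2 to 3 (2.90 against 2.72). It was also higher from the genome-wide value to 1.5 (3.67 against 3.62) and at 5 to 10 (2.14 against 2.09). At 20 or more it was lower, 2.21 against 2.49.

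**Figure D4:**
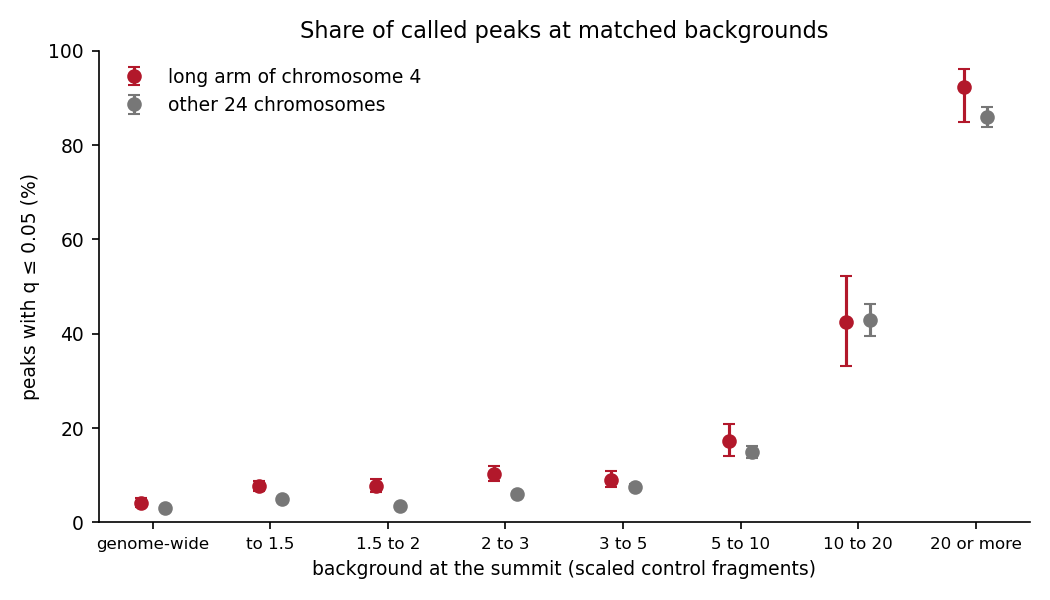
Points give the share of listed peaks of low q in 8 ranges of background (scaled control fragments) for the long arm (red) and the other 24 chromosomes (grey), with Wilson 95% intervals as bars. The long arm's share is higher in every range except 10 to 20, where the shares are 42.4% and 42.8%. The intervals overlap at the genome-wide value and in each range from 3 upward.

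Spacing on the long arm was short. The median distance from a summit to the next was 3577 bp, against 5039 bp on the rest of chromosome 4 and 4835 ± 115.2 bp (SD, n = 24) on the others. The shortest median among those was 4578 bp on chromosome 8. Fewer than 1 kb separated 22.2% (21.3% to 23.1%) of neighbouring peaks on the long arm, 13.1% on the rest of chromosome 4 and 14.5% on the other 24. The density differed by 1.10 times, or by 1.16 times without the intervals of 50 kb or more, whereas the median distance was 0.742 times that of the pooled other 24 chromosomes.

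Most members were narrow, as elsewhere in the list. Their median width was 231 bp (quartiles 186 and 330 bp), against 224 bp on the rest of chromosome 4 and 222 bp on the others. Wide peaks were more frequent: 148 members spanned 800 bp or more, or 1.82% (1.55% to 2.13%). On the other chromosomes the share was 0.620% ± 0.157 (SD, n = 24), with chromosome 10 highest at 1.08%, and on the rest of chromosome 4 it was 0.293%, from 10 peaks. The long arm made up 3.95% of the length of the numbered chromosomes and held 11.8% of their peaks of that width. Weighted by background as above, 73.3 would have been counted, so the number was 2.02 times that.

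The wide members were deeper than wide peaks elsewhere. The median overexpression pileup was 18 and the median background 5.52, against 8 and 1.66 for wide peaks of the other chromosomes. Of the 148, 90 were of low q (60.8%), compared with 41.5% elsewhere. The widest member ran from 39336714 to 39341063, or 4350 bp, with 24 overexpression and 16 control fragments at its summit, a ratio of 2.72 (1.38 to 5.47). The next, from 55122000 to 55126330, had 27 over a background of 8.34, and in the authors' deposited table its -log10 q was 3.64. The third, from 54033841 to 54037207, also had 27, over 12.2, and in the authors' deposited table its -log10 q of 1.11 fell short of a q of 0.05. Width and a low q thus did not always go together.

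Part of the signal sat in few places. Of the 518 stretches of 100 kb on the long arm with at least 1 peak, 328 (63.3%) held a peak of low q, against 44.7% on the other chromosomes and 34.4% on the rest of chromosome 4. In 24 stretches there were 5 or more, which is 4.63% against 0.938% on the other chromosomes. Those 24 were 16.7% of all 144 such stretches on the numbered chromosomes. They held 238 of the long arm's 769 peaks of low q (30.9%) and 74 of its 104 with a -log10 q of 5 or more (71.2%). On the other chromosomes the like stretches held 16.5% and 70.7%. Outside them, the long arm still had a share of 7.1%, against 4.43% on the other chromosomes.

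The strongest stretch lay from 28.5 to 28.6 Mb. It held 35 peaks, of which 30 were of low q and 27 a -log10 q of 5 or more. Among its 31 peaks of high background, the overexpression pileup ran from 28 to 603 with a median of 152. Their backgrounds ran from 14.7 to 224.8 with a median of 58.0, and the ratio of the libraries stayed between 1.78 and 3.66. These 31 peaks ran from 28552357 to 28599747 and covered 32.0% of that span. The end of this run at 28.6 Mb is the edge of the 100 kb stretch. From 28.6 to 28.7 Mb, 7 of 16 peaks were of low q, and backgrounds reached 102.7. Further high peaks followed from 28.7 to 28.9 Mb, where 26 peaks of high background had a median ratio of 1.90.

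**Figure D5:**
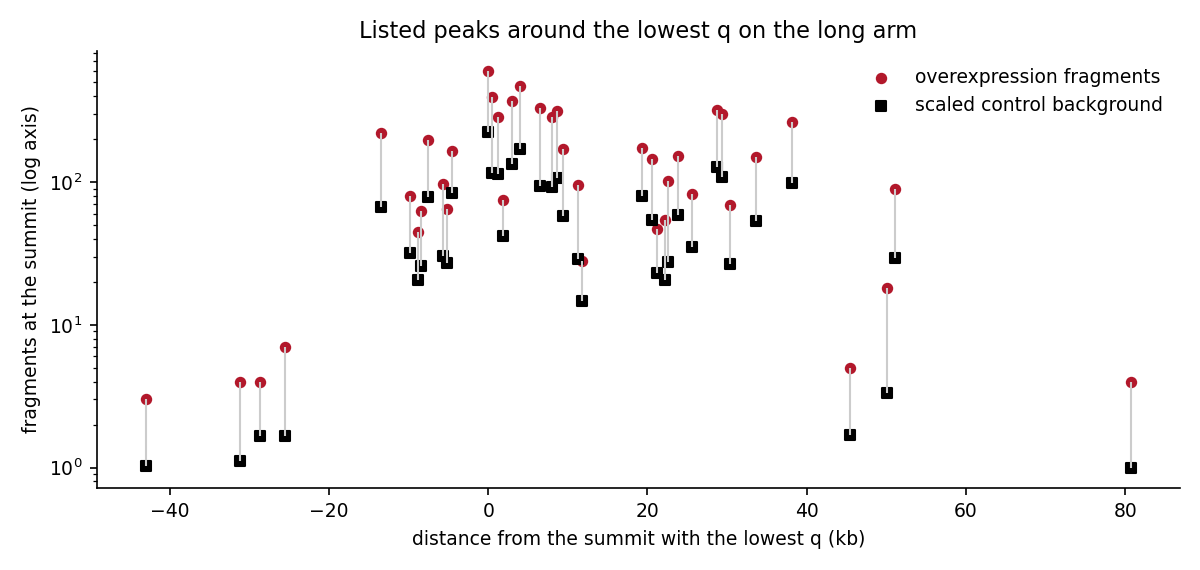
Red points give the overexpression fragments and black squares the scaled control background (log axis) at each listed summit around the member with the lowest q, against the distance from it in kb. Both libraries are high at the same summits, where the backgrounds reach 224.8, and both are low at the 4 summits before them and at most of the few that follow.

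Of the 10 members with the lowest q, 8 lay in the strongest stretch. The lowest q belonged to the peak from 28565808 to 28566096. Its summit had 603 overexpression fragments. The control had 407 there, which gives a scaled ratio of 2.68 (2.36 to 3.05), and in the authors' deposited table its -log10 q was 91.2. The peak beside it, from 28566316 to 28566574, had 395 against 209, a ratio of 3.42 (2.89 to 4.07). The third, from 28571936 to 28572707, had 331 against 170, a ratio of 3.53 (2.92 to 4.27). The other 5 had 287 to 470 overexpression fragments and ratios from 2.76 to 3.11. The lowest q values thus came from summits that were deep in both libraries.

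The remaining 2 of the 10 lay elsewhere and had higher ratios. The peak from 70443171 to 70443742 had 168 overexpression against 67 control fragments, a ratio of 4.54 (3.40 to 6.12). The peak from 26868146 to 26869347 had 170 against 69, a ratio of 4.46 (3.35 to 5.99). The latter belongs to the stretch from 26.8 to 26.9 Mb. There, 26 peaks with backgrounds of 6.28 to 38.1 ran from 26849081 to 26896498, and their median ratio was 2.69.

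The stretches with the next most peaks of low q beyond 30 Mb were lower. From 55.1 to 55.2 Mb, 22 of 37 peaks were of low q. Its 27 peaks of high background had a median of 7.72 scaled control fragments, a median width of 883 bp, and covered 58.0% of the 48.8 kb they spanned. From 53.4 to 53.5 Mb, 50 of 56 peaks were of high background, with a median of 8.06, and 18 were of low q. The pileups of these peaks did not exceed 45 overexpression fragments. From 49.3 to 49.4 Mb the median width of the 20 peaks of high background was 444 bp, equal to that of the strongest stretch, and from 63.3 to 63.4 Mb that of 21 such peaks was 329 bp. Widths of the dense stretches thus did not follow their place along the arm.

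The members with the highest fold enrichment were others. The 28 with a fold of 5 or more lay in 27 different stretches of 100 kb, had a median of 12 overexpression fragments over a background of 1.14, and 6 of them stood at the genome-wide background. In the authors' deposited table the highest fold, 8.91, belonged to the peak from 60892283 to 60892553. It had 17 overexpression fragments, and its background came from 12 control fragments within 1 kb, a ratio of 16.6 (7.49 to 38.2). The second, from 74446408 to 74447078, had 22 against 3 over the summit, a ratio of 13.3 (3.99 to 69.3). With so few control fragments the intervals are wide. The peaks were picked for their high folds, and the intervals do not allow for that choice.

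The third, from 51976167 to 51976636, had 16 overexpression fragments and stood at the genome-wide background, which leaves room for 1 control fragment at its summit. With the control set to a floor of 3 fragments, its overexpression pileup was at least 9.66-fold higher. The fourth, from 55754809 to 55755361, had 43 overexpression fragments and 50 control fragments within 1 kb, a ratio of 10.1 (6.56 to 15.5). The fifth, from 63365132 to 63365346, had 87 against 19, a ratio of 8.29 (5.00 to 14.4). It was the only 1 of the 5 of high background, at 10.5. In the authors' deposited table its -log10 q was 44.4, the lowest q of these 5.

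Unplaced scaffolds and chromosome ends came closest to the long arm in some of these values. On the KN and KZ scaffolds 11.6% of 3799 peaks were of low q, 9.77% were of high background and 1.76% were 800 bp wide or more. In the first and last Mb of the other 24 chromosomes, the same shares were 8.21%, 5.77% and 0.718% of 7660 peaks. The median background was 1.34 on the scaffolds and 1.62 at the chromosome ends, beside 1.66 on the long arm. The scaffolds had a median spacing of 3573 bp, beside 3577 bp on the long arm, and 23.1% of their neighbouring peaks were under 1 kb apart. The chromosome ends had 159.6 peaks per Mb, above the 153.6 of the long arm, and the 10 kb window set the background for 20.4% of their peaks. The scaffolds were thus near the long arm in wide peaks, high backgrounds and spacing. The ends were near it in the median background and exceeded it in density and in the share of the 10 kb window, but had a lower share of wide peaks. Their median ratio was 3.20, beside 3.22 on the long arm, and 15.9% of their peaks stood at the genome-wide background, beside 19.9%.

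The high control, the depth of both libraries and the empty intervals stood beside the excess of peaks of low q on the long arm, and their part in it beyond the comparison at matched backgrounds was not tested.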

How the data were processed

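The 2 CUT&Tag libraries were grouped by their titles, and both labels point to 1 deposited peak list. FastQC 0.11.4, Trim Galore 0.6.0, Bowtie2 2.4.5, SAMtools 1.15.1, Picard 2.1.0, MACS2 2.2.7.1, deepTools 3.5.0 and the build GRCz11 are named in the submitters' processing notes. Their parameters, the treatment of duplicates and of reads with several matches, and any pooling are not given in the sources used here. Pileups in repeats depend on how such reads and duplicates were treated, and their part in the values here was not tested. Per peak, the values that the authors deposited are a fold enrichment (a ratio at the summit), a -log10 p, a -log10 q and a score. The list has no header. No -log10 p in it was below 1.304, close to that of a p of 0.05.

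As MACS2 computes them, the fold is (t + 1)/(b + 1), and the p is the chance under a Poisson law with mean b of a count above t, where t is the overexpression pileup and b the background. The whole t that met both within a relative 5e-05 was found for 192839 of 192841 peaks, and the largest difference was 5.96e-05. All backgrounds above the genome-wide value lay on multiples of 0.552 (a control fragment over the summit), 0.0851 (in 1 kb) or 0.00851 (in 10 kb), within 0.0001 plus 1e-05 of the value. A value on several was given to the narrowest window. This gave a fragment length of 154.1 bp. On simulated data, all 3604 summits were recovered (100%).

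The arm's end is the end of its last listed peak, and bins are whole 1 Mb bins. Dense stretches are 100 kb with at least 5 peaks of a q of 0.05 or less. The named peaks are the 10 of lowest q, the 5 of highest fold, those at the boundary and the widest; the next 2 widest were named after their values were seen. The members, ranges and lists were chosen with earlier results of these data known, and a rise in peaks of low q along chromosome 4 was among those results. Python 3.11.15, numpy 2.4.6, pandas 2.3.3, scipy 1.17.1 and matplotlib 3.10.9 were used. Base composition, gene features, gene classes and motifs were not analysed here, since no genome or annotation of the build was at hand.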

Additional observations from a re-analysis of the deposited data

How the results depend on the processing

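No paired analysis was possible because each group has 1 sample. In all 46 alternative settings were run, 9 of them chosen after seeing the data, and 9 others, on length without unknown bases, base composition, genes and motifs, were not. In 27 of the 46 the value of the long arm stayed within its interval, or within 1.5 times for the density. No alternative that began the region at 27 or 30 Mb, or left out the last 1 Mb of every chromosome, moved a value further.

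Without peaks of high background, the share of low q was 7.58% (4.37% on the other 24 chromosomes), the median width 226 bp, the median spacing 4010 bp (4972 bp elsewhere), the median background 1.42 and the median ratio 3.46. Without dense stretches these were 7.1%, 227 bp, 3829 bp and 1.55, with the ratio within its interval. At other thresholds the share was 4.98% for a q of 0.01, 1.28% for a -log10 q of 5 and 0.343% for a fold of 5. In the whole list the same shares were 2.69%, 0.747% and 0.303%. Among peaks of low q alone the density was 14.49 per Mb, the median width 341 bp, the median spacing 28600 bp, the median pileup 11, the median background 2.21 and the median ratio 4.98. In the same order, the peaks of low q on the other chromosomes gave 7.29 per Mb, 316 bp, 77150 bp, 9, 1.39 and 6.05. The part of the stricter selection in these shifts was not tested. The share that the other chromosomes would give at the same backgrounds was 6.80%. The share on the long arm was 1.60 to 1.99 times that of the other chromosomes under the other settings that called peaks by q, and 1.39 times at matched backgrounds. Without peaks of high background the density was 138.9 per Mb, against 135.6 on the other chromosomes, and the median pileup was 5 on both.

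At this depth, with a median of 6 fragments at a summit and at least 7 at every member of low q, weaker sites could not be called.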
